A study of Mus musculus with 5 samples.

Results

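Leukocytes leave the blood by holding on to adhesion molecules on the vessel wall. Of the 31053 genes in the deposited tables, 9 were described here, chosen by symbol. The 5 ligand genes were Vcam1, Icam1, Icam2, Sele and Selp, and the 4 partner genes carried by leukocytes were Selplg, Itga4, Itgal and Itgb2. All 9 symbols were found in the tables. The ligands were examined in all cell classes and the partners mainly in leukocytes, and no member was a marker used to sort cells into classes.

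In general, selectins (Sele for E-selectin, Selp for P-selectin) catch passing leukocytes through sugar-bearing proteins such as PSGL-1, which Selplg encodes. Firm arrest then follows when integrins bind members of the immunoglobulin family. Itgal and Itgb2 encode the chains of LFA-1, which binds ICAM-1 and ICAM-2, and Itga4 encodes the alpha chain of VLA-4, which binds VCAM-1. Vcam1, Icam1 and Sele are textbook genes of inflamed endothelium, whereas Icam2 is carried by resting endothelium.

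The samples were 5 single-cell libraries of mouse heart, made with the 10x Genomics 5′ kit from digested hearts, after sorting for DRAQ5+ DAPI- cells (nucleated cells that exclude a dead-cell dye). Controls were Ctla4+/+ Pdcd1-/- mice (libraries control 1 and control 2), and the disease group, a model of myocarditis under immune checkpoint inhibition, was Ctla4+/- Pdcd1-/- mice (disease 3, disease 4 and disease 5). Both groups lacked Pdcd1, so the contrast is the loss of 1 of 2 Ctla4 copies, and hearts of 4 control and 10 disease mice were pooled. The label of each library numbers the Pdcd gene and the sort dye upward (control 2 and disease 4 read Pdcd2-/-, disease 5 reads Pdcd3-/-), while the protocol names Pdcd1-/- for both groups, so the Ctla4 genotype alone set the groups. The labels do not tie a library to a mouse, so p-values measure the spread between these libraries, which may be technical. The age of the mice is not given in the sources used here.

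The libraries held 24991704 to 55053988 UMIs (unique molecular identifiers, each standing for 1 captured RNA molecule), and 37175 of 47319 barcodes were kept. Of these, 34350 (92.4%) were placed in 1 of 12 classes by marker UMIs. Heart muscle genes (Myh6, Tnnt2, Tnni3, Actc1, Ryr2 and Pln) were present in every library, at 117 to 349 CPM in sum, although no muscle class was gated. Leukocytes were 24.0%, 17.9%, 15.9%, 50.2% and 21.9% of the placed cells in control 1, control 2, disease 3, disease 4 and disease 5. Disease 4 stood apart, with 2325 T cells against 92 to 580 in the other 4 libraries. Libraries shared 86 to 161 barcodes per pair, against 75.6 to 171 for random draws from the kit's barcodes. Levels are given below as CPM, the UMIs of a gene per 1000000 UMIs of that class in that library, always in the order control 1, control 2, disease 3, disease 4, disease 5.

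The stretch before the transcription start is shown for Icam1 and Sele, because both belong to the inducible set and because one was found in many cell types and the other in almost none. The sequences are RefSeq's for GRCm38.p6, 250 bases upstream of the start on the plus strand, and 4 of the 9 members had an entry in that table (Icam1, Sele, Selp and Itga4). Capitals mark matches to GGNNNTTCC, a kappaB-like pattern bound by NF-kappaB factors, or to TTCNNNGAA, the pattern of a gamma-activated site bound by STAT factors, both searched on both strands. The patterns were chosen after the sequences had been seen.
Icam1, chr9:21015690-21015939: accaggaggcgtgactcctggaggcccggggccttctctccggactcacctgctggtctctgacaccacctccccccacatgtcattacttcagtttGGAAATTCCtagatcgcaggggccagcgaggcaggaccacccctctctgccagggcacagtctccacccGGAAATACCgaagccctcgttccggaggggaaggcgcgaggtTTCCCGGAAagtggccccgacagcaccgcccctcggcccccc
Sele, chr1:164047984-164048233: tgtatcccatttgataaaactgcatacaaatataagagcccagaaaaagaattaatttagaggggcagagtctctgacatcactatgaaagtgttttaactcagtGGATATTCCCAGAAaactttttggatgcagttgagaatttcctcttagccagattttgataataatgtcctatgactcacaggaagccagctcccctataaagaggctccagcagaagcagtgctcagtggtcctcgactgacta

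Icam1 held kappaB-like matches 153 to 145 and 84 to 76 bases before the start, and a gamma-activated match 42 to 34 bases before it. In Sele a kappaB-like match 145 to 137 bases before the start overlapped a gamma-activated match at 140 to 132. Selp had 1 kappaB-like match, 14 to 6 bases before its start, and Itga4 had none in this window. Of 32851 promoters in the same table, 15.66% held the kappaB-like pattern and 7.02% the gamma-activated pattern, so a match is common and is a description only. The Sele entry starts inside the annotated gene, which spans chr1:164039614-164058487, with Selp next to it at chr1:164115264-164150026.

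Vcam1, the ligand of VLA-4, was higher in fibroblasts and endocardial cells than in capillary cells, and low in mural cells. Fibroblasts held 220, 165, 218, 422 and 243 CPM. Endothelial cells held 69.0, 31.6, 53.7, 138 and 75.1 CPM. Every library had more in fibroblasts than in endothelium, and disease 4 was highest in both. The fitted difference, endothelial minus fibroblast, was -1.9996 on the log2 scale (SE 0.23, edgeR quasi-likelihood adjusted p = 1.45e-08), in a contrast where 65.5% of 14376 genes passed the test at an adjusted p of 0.05. In T cells it was 0 to 6.81 CPM. Mural cells, the other stromal class, held 9.20, 12.1, 9.96, 0 and 17.5 CPM from 0 to 2 UMIs a library. Mural minus endothelial was -2.795 (SE 0.63, edgeR adjusted p = 0.000269), where 36.3% of 9674 genes passed, and -3.12 to -2.38 with 1 library left out at a time.

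Schwann cells, the glia of cardiac nerves, were low for Vcam1 in 4 libraries and high in 1, at 10.3, 0, 0, 462 and 0 CPM from 1, 0, 0, 22 and 0 UMIs. Their Icam1 levels of 10.3, 0, 19.9, 483 and 69.1 CPM had the same outlying library. Schwann minus fibroblast was -2.32 for Vcam1 (SE 0.43, edgeR adjusted p = 2.03e-05), where 24.5% of 9674 genes passed, and -6.17 without disease 4. These values come from 11 to 35 Schwann cells a library.

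Within the endothelium Vcam1 differed by vessel type. Capillary cells held 51.6, 22.9, 37.8, 123 and 55.6 CPM, and arterial cells 94.4, 59.8, 62.4, 299 and 232 CPM. Endocardial cells, which line the chambers, held 995, 517, 787, 958 and 647 CPM. The endocardial values did not overlap those of either vessel type. Arterial minus capillary was 1.23 (SE 0.17, edgeR adjusted p = 5.98e-12), where 14.9% of 11571 genes passed. Endocardial minus capillary was 3.98 (SE 0.20, edgeR adjusted p = 2.54e-16), where 40.7% of 3555 genes passed, from 9 to 27 endocardial cells a library. Lymphatic endothelial cells had Vcam1 UMIs in only 2 libraries, with 0, 0, 0, 42.9 and 21.2 CPM, from 9 to 26 cells a library. Lymphatic minus capillary was -2.65 (SE 0.80, edgeR adjusted p = 0.00883), where 37.8% of genes passed, and without control 1 the adjusted p was 0.0724 and without disease 4 the difference was -3.55. Venous cells numbered 4, 7, 7, 1 and 2 in the libraries and were not tested. They held 9, 2, 32, 0 and 8 Vcam1 UMIs, or 1074, 80.5, 1027, 0 and 1014 CPM, which overlaps the endocardial values and exceeds them in 3 libraries.

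**Figure D1:**
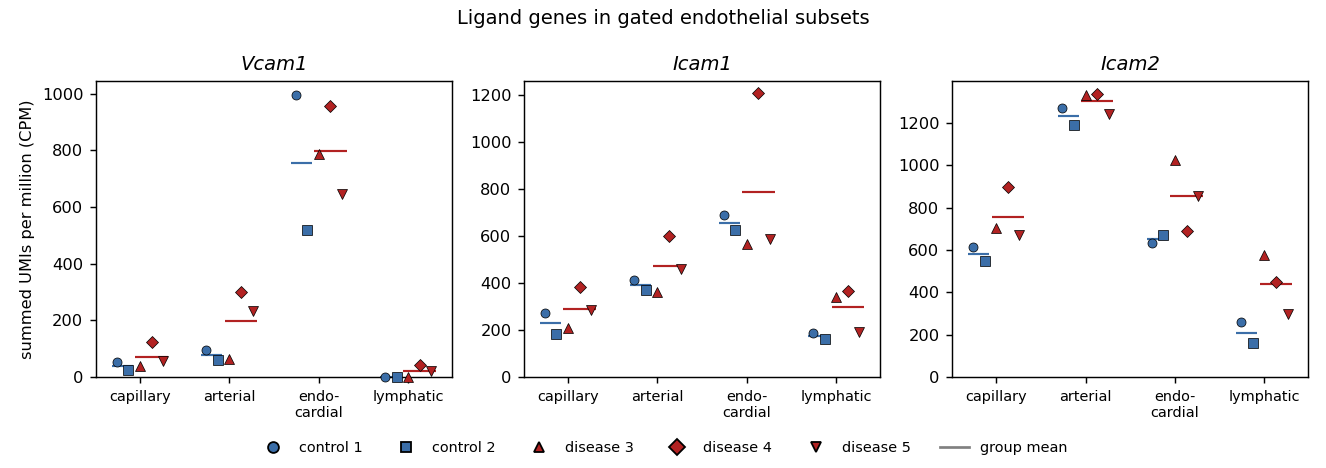
Levels of Vcam1, Icam1 and Icam2 (vertical axes, CPM) in capillary, arterial, endocardial and lymphatic endothelial cells, 1 symbol per library and a line at each group mean. Vcam1 was 517 to 995 CPM in endocardial cells and 22.9 to 123 CPM in capillary cells, whereas Icam2 was highest in arterial cells.

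Icam1, a ligand of LFA-1, was found in every large class. Endothelial cells held 284, 203, 222, 401 and 301 CPM, and fibroblasts 248, 246, 231, 498 and 304 CPM. The endothelial and fibroblast ranges overlapped, and the difference was -0.19 (SE 0.14, edgeR adjusted p = 0.220). Monocytes and macrophages held 443, 553, 488, 701 and 570 CPM. T cells held 281, 178, 167, 371 and 274 CPM and B cells 83.2, 114, 101, 110 and 59.1 CPM. The order was therefore monocytes and macrophages highest, endothelium, fibroblasts and T cells overlapping in the middle, and B cells lowest. T cell minus monocyte/macrophage was -1.16 (SE 0.14, edgeR adjusted p = 5.87e-08), where 64.4% of 14376 genes passed, and B cell minus T cell was -1.28 (SE 0.16, edgeR adjusted p = 4.22e-07), where 32.8% passed.

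Among endothelial cells Icam1 was higher in arterial and in endocardial cells than in capillary cells. Arterial cells held 412, 371, 364, 599 and 458 CPM against 273, 183, 207, 381 and 285 CPM in capillary cells, and each library had more in its arterial cells. The difference was 0.63 (SE 0.10, edgeR adjusted p = 1.10e-08). Endocardial cells held 688, 624, 564, 1208 and 586 CPM, a difference from capillary cells of 1.48 (SE 0.14, edgeR adjusted p = 1.97e-10). Lymphatic cells held 161 to 365 CPM and did not pass (-0.31, SE 0.19, edgeR adjusted p = 0.213). Mural cells, the pericytes and smooth muscle around vessels, held only 12.1 to 76.6 CPM from 2 to 5 UMIs a library, 3.36 lower on the log2 scale than endothelium (fitted value -3.36, SE 0.36, edgeR adjusted p = 1.60e-11), where 36.3% of 9674 genes passed.

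Icam1 was detected more often in endothelial cells with a Vcam1 UMI than in those without. After each cell was thinned to 1000 UMIs, Icam1 was detected in 37.7%, 25.4%, 26.4%, 39.1% and 43.0% of endothelial cells with a Vcam1 UMI. In cells without one the shares were 17.7%, 13.7%, 13.7%, 20.9% and 16.5%, lower in 5 of 5 libraries. The 95% Wilson intervals of the 2 shares overlapped in 0 of 5 libraries, with the closest bounds in control 2 (16.1% to 37.8% with and 12.4% to 15.1% without). The endothelial cells with a Vcam1 UMI numbered 59 to 138 a library. In capillary-gated cells alone, which leaves out the endocardial cells high in both genes, the shares were 31.6%, 24.4%, 22.1%, 38.7% and 38.5% with a Vcam1 UMI and 17.5%, 13.1%, 13.2%, 19.98% and 15.8% without. There the intervals overlapped in 2 of 5 libraries, control 2 (14.2% to 38.7% with and 11.7% to 14.5% without) and disease 3 (13.8% to 33.3% and 11.9% to 14.7%). In fibroblasts the gap was 0.778 to 7.02 percentage points, and in monocytes and macrophages it ran from -8.37 to 9.30. Cells of a library are not replicates, so no test was made.

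**Figure D2:**
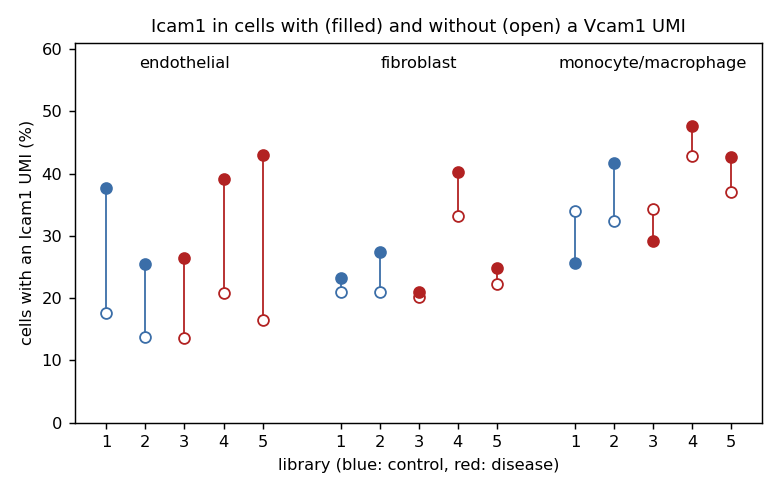
Share of cells with an Icam1 UMI (vertical axis, percent, after thinning to 1000 UMIs) among cells with a Vcam1 UMI (filled) and without (open), by library and class. The filled endothelial points, 25.4% to 43.0%, all lie above the open ones, 13.7% to 20.9%, and the gaps are smaller or mixed in the other classes.

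Icam2, the second LFA-1 ligand, was an endothelial gene. Endothelial cells held 625, 560, 718, 901 and 687 CPM, and fibroblasts 3.07, 2.36, 4.16, 1.42 and 4.08 CPM. The difference was 7.74 (SE 0.28, edgeR adjusted p = 2.88e-19). Arterial cells held 1271, 1190, 1330, 1339 and 1244 CPM, above every capillary value (546 to 899 CPM), a difference of 0.81 (SE 0.08, edgeR adjusted p = 6.28e-24). Lymphatic cells held 259, 161, 576, 451 and 297 CPM, 1.21 below capillary cells on the log2 scale (fitted value -1.21, SE 0.18, edgeR adjusted p = 1.96e-06). Endocardial cells, with 630 to 1024 CPM, did not pass against capillary cells (0.21, SE 0.14, edgeR adjusted p = 0.263); without disease 4 the adjusted p was 0.0333. Among capillary, arterial, endocardial and lymphatic cells, Vcam1 and Icam1 levels were highest in endocardial cells and Icam2 in arterial cells in 5 of 5 libraries, although endocardial and arterial cells were not tested against each other. The few venous cells are left out of that order. B cells also held Icam2, at 36.7, 29.1, 60.7, 49.8 and 57.3 CPM, 1.91 above T cells on the log2 scale (SE 0.33, edgeR adjusted p = 4.54e-05).

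The selectin genes were close to the limit of detection. Sele had 2, 1, 6, 2 and 12 UMIs in 2227 to 3312 endothelial cells a library, in 1 to 6 cells each. It had 19, 6, 6, 12 and 2 UMIs in fibroblasts and 9, 1, 3, 1 and 2 in 27 to 59 mural cells, where it reached 6.05 to 41.4 CPM. Selp had 42, 3, 18, 17 and 17 endothelial UMIs, in 21, 2, 12, 11 and 11 cells, and 6 of the 21 cells of control 1 also held a platelet marker. Platelets carry P-selectin in their granules. Only 1 barcode in the whole study passed the platelet gate. Neutrophils held 4, 1, 4, 4 and 1 Selp UMIs in 18 to 78 cells, and none of the cells with a Selp UMI held a platelet marker. These were 62.0, 9.28, 101, 28.2 and 24.1 CPM. Neutrophil minus monocyte/macrophage was 5.94 for Selp and passed in edgeR, where 43.7% of 9674 genes did. It was 5.32 to 6.14 with 1 library left out at a time. Selp was also higher in endothelium than in fibroblasts by the edgeR test, where 65.5% of 14376 genes passed. In venous cells Selp had 6 UMIs in the 4 cells of control 1 and 2 UMIs in the 7 cells of disease 3. Endothelial Sele was 0.183 and 0.110 CPM in the controls and 0.689, 0.342 and 1.18 CPM in disease, so every disease library lay above both controls, from 1 to 12 UMIs a library. How many of all genes kept such an order was not computed, here or for the members below. Sele was too low in endothelium for the edgeR test between the groups. The share of endothelial cells with a Sele UMI did not overlap between the groups at 2000 UMIs a cell (exact two-sided permutation p = 0.1, the smallest possible) or without thinning (exact p = 0.2), and overlapped at 1000 UMIs a cell (exact p = 0.4, adjusted p = 1 over 45 tests). The group difference in Sele was 2.76 larger in endothelium than in fibroblasts on the log2 scale (SE 1.17, edgeR unadjusted p = 0.0330, adjusted p = 0.256) and did not pass. Endothelial Selp overlapped between the groups (disease minus control -0.045, SE 0.83, edgeR adjusted p = 0.979).

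**Figure D3:**
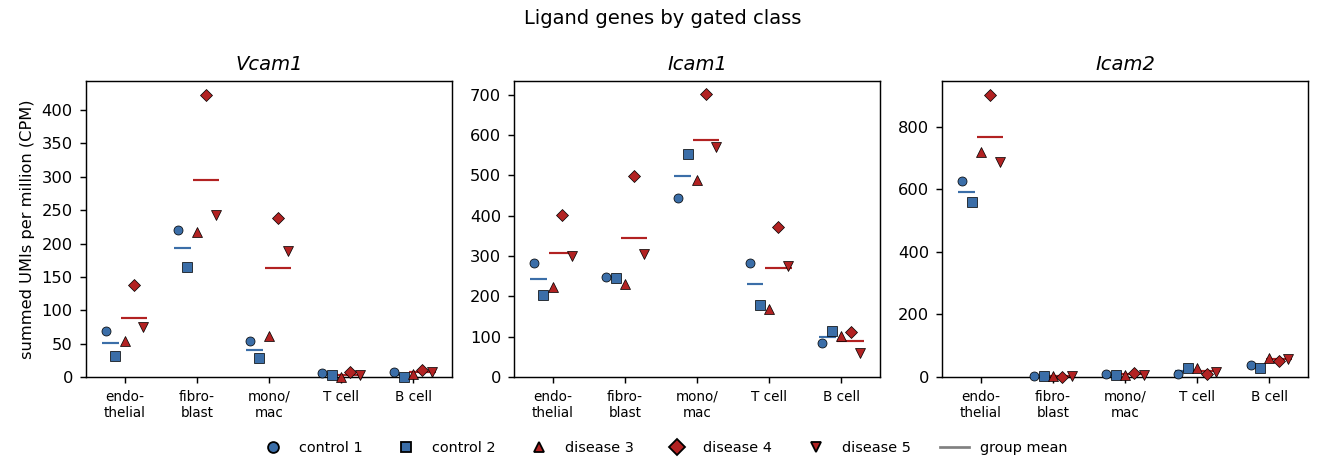
Levels of Vcam1, Icam1 and Icam2 (vertical axes, CPM) in 5 gated classes, 1 symbol per library and a line at each group mean. Vcam1 is highest in fibroblasts, Icam1 is spread over all classes, and Icam2 lies between 560 and 901 CPM in endothelium and below 61 CPM elsewhere; disease 4 is the highest library for all 3 genes in endothelium.

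Selplg, the selectin ligand, was highest in neutrophils, NK cells and T cells. Neutrophils held 899, 548, 959, 705 and 917 CPM, and NK cells 443, 717, 711, 833 and 882 CPM. T cells held 470, 292, 394, 612 and 638 CPM, monocytes and macrophages 193, 187, 207, 252 and 217 CPM, and B cells 31.8, 13.2, 56.2, 43.9 and 38.8 CPM. The neutrophil and NK ranges overlapped, and the B cell values lay below all others. T cell minus monocyte/macrophage was 1.12 (SE 0.20, edgeR adjusted p = 1.56e-05) and B cell minus T cell was -3.66 (SE 0.26, edgeR adjusted p = 8.39e-12). NK minus T cell was 0.11 (SE 0.22, edgeR adjusted p = 0.811), where 13% of 9674 genes passed. Neutrophil minus monocyte/macrophage was 1.76 (SE 0.22, edgeR adjusted p = 4.59e-09), where 43.7% passed. Among T cells, CD8 cells held 491, 310, 448, 640 and 654 CPM and CD4 cells 254, 232, 167, 346 and 477 CPM. Each library had more in its CD8 cells, a difference of 0.86 (SE 0.17, edgeR adjusted p = 0.00293), where 6.43% of 4386 genes passed.

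Itga4, the alpha chain of VLA-4, was spread over all leukocyte classes. T cells held 298, 122, 241, 344 and 276 CPM, B cells 176, 141, 229, 216 and 163 CPM, and monocytes and macrophages 96.4, 110, 118, 134 and 112 CPM. T cells and B cells overlapped (B cell minus T cell -0.33, SE 0.23, edgeR adjusted p = 0.309). T cell minus monocyte/macrophage was 1.11 (SE 0.22, edgeR adjusted p = 6.73e-05). NK cells held 201 to 402 CPM and neutrophils 177 to 314 CPM, the latter 1.08 above monocytes and macrophages on the log2 scale (SE 0.29, edgeR adjusted p = 0.0017), which was 0.0783 without control 1. Schwann cells held 72.1, 62.2, 199, 168 and 104 CPM from 2 to 10 UMIs a library, against 1.06 to 8.34 CPM in fibroblasts. That difference was 4.48 (SE 0.56, edgeR adjusted p = 4.69e-09), on the same background as above.

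Itgal and Itgb2, the chains of LFA-1, ordered the leukocytes in another way. Itgal was highest in neutrophils, at 263, 288, 429, 416 and 531 CPM, and NK cells, at 322, 258, 326, 320 and 228 CPM. T cells held 115, 48.3, 99.1, 154 and 140 CPM, monocytes and macrophages 38.2, 16.2, 22.4, 58.6 and 30.2 CPM, and B cells 14.7, 9.25, 8.99, 35.1 and 20.3 CPM. Neutrophils and NK cells lay above every T cell value. NK minus T cell was 0.85 (SE 0.21, edgeR adjusted p = 0.00417), which was 0.0792 without control 1. T cell minus monocyte/macrophage was 1.67 (SE 0.15, edgeR adjusted p = 2.02e-10) and B cell minus T cell -2.43 (SE 0.23, edgeR adjusted p = 1.50e-09).

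Itgb2, the chain shared by LFA-1 and the other beta2 integrins, held 765, 918, 888, 778 and 740 CPM in NK cells and 604, 427, 606, 515 and 482 CPM in neutrophils. T cells held 416, 183, 247, 507 and 520 CPM, and monocytes and macrophages 273, 173, 229, 412 and 298 CPM. B cells held 58.7, 43.6, 62.9, 90.7 and 64.6 CPM, below all of these. NK minus T cell was 0.67 (SE 0.21, edgeR adjusted p = 0.0260), which was 0.117 without control 1, 0.236 without control 2 and 0.0517 with up to 25% mitochondrial UMIs. T cell minus monocyte/macrophage did not pass (0.37, SE 0.17, edgeR adjusted p = 0.0569), and passed with plain totals in place of TMM (0.41, edgeR adjusted p = 0.0443), with up to 25% mitochondrial UMIs (0.0237) and with a gate of 4 markers (0.0390). It did not pass with DESeq2, where its unadjusted p was also not under 0.05. With 1 library left out at a time the difference was 0.28 to 0.49. B cell minus T cell was -2.395 (SE 0.21, edgeR adjusted p = 4.83e-10). Dendritic cells, only 2 to 20 a library and not tested, held 294 to 559 CPM of Selplg, 98.1 to 386 of Itga4, 13.3 to 65.4 of Itgal and 240 to 458 of Itgb2.

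The median of all genes tested was not at 0 in several of these contrasts, so each difference is to be read against it. It was -0.17 for T cell minus monocyte/macrophage, -0.53 for NK minus T cell, -0.92 for neutrophil minus monocyte/macrophage, -0.27 for mural minus endothelial, -0.55 for Schwann minus fibroblast, -0.15 for arterial minus capillary and -0.21 for monocyte-gated minus resident-gated.

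**Figure D4:**
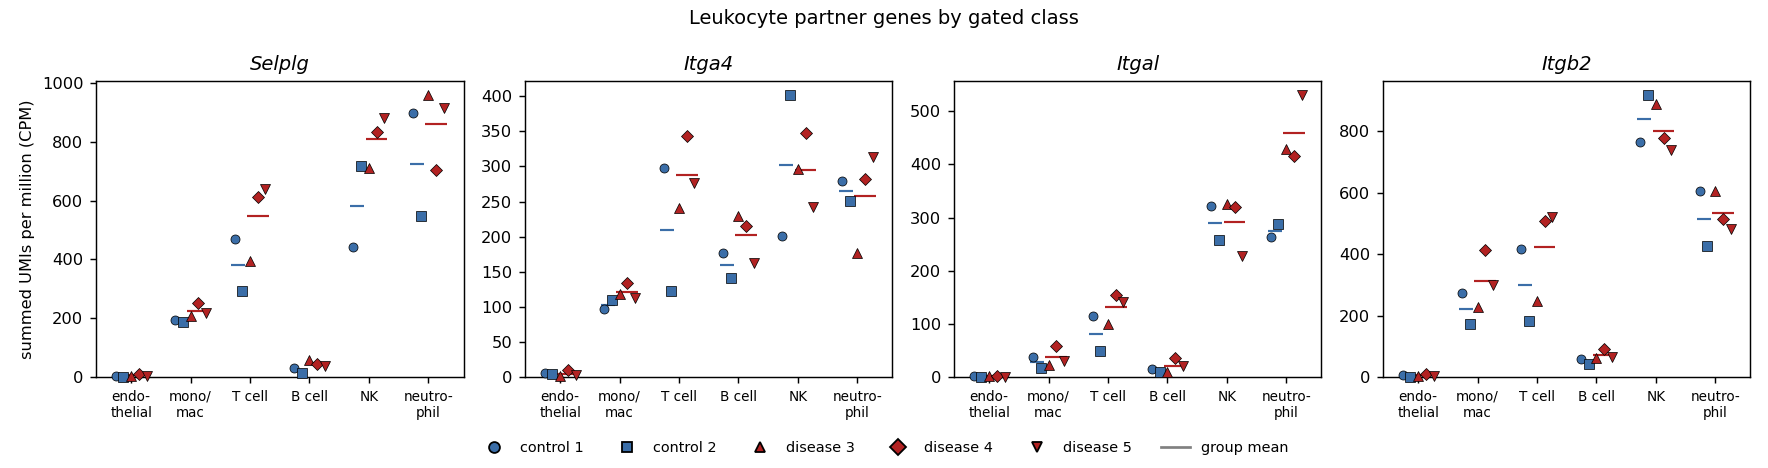
Levels of Selplg, Itga4, Itgal and Itgb2 (vertical axes, CPM) in endothelial cells and 5 leukocyte classes, 1 symbol per library and a line at each group mean. Itga4 overlaps between T and B cells, whereas Selplg, Itgal and Itgb2 are low in B cells; endothelial values stay below 11 CPM.

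Within the mononuclear phagocytes, LFA-1 genes and Vcam1 ran in opposite directions. Monocyte-gated cells held Itgal at 71.3, 288, 386, 159 and 113 CPM, and resident-gated macrophages at 16.0, 1.56, 4.2, 29.2 and 17.9 CPM. The ranges did not overlap, with a difference of 3.604 (SE 0.25, edgeR adjusted p = 4.61e-34), where 28.5% of 9272 genes passed. Itgb2 differed by 1.498 (SE 0.16, edgeR adjusted p = 6.58e-17) and Itga4 by 1.22 (SE 0.18, edgeR adjusted p = 2.87e-09), both higher in the monocyte gate. Vcam1 was 0, 0, 47.3, 22.2 and 0 CPM in the monocyte gate and 49.6, 23.9, 55.02, 203 and 152 CPM in the resident gate. Its difference was -2.97 (SE 0.34, edgeR adjusted p = 9.53e-15). Selplg did not pass (0.17, SE 0.18, edgeR adjusted p = 0.511). Icam1 was 0.50 lower on the log2 scale in the monocyte gate (fitted value -0.50, SE 0.16, edgeR adjusted p = 0.00911), and 0.142 was its adjusted p without disease 3. The monocyte gate held 9 to 83 cells a library. With 1 subset marker required in place of 2, the Vcam1 difference was -1.83, and with 3 it was -4.37.

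The second question was whether the members differed between disease and control hearts within a cell class. No tested member passed in endothelial cells, fibroblasts, monocytes and macrophages, T cells or B cells (edgeR, adjusted p of 0.05, 2 controls against 3 disease libraries). Abundant enough to be tested were 8, 8, 7, 7 and 6 of the 9 members in these classes. The share of all genes that passed was 12.1%, 12.9%, 6.84%, 4.91% and 9.21% in these classes, nearly all of them lower in disease. At an unadjusted p under 0.05, edgeR gave 0, 0, 1 (Vcam1), 0 and 2 (Selplg and Icam2) members. Among all genes, 3159 of 12684, 3834 of 13332, 2067 of 10981, 1493 of 9773 and 1230 of 5179 had such a p. DESeq2 called 0, 0, 1 (Vcam1), 0 and 0 members. The share of all genes that DESeq2 called in monocytes and macrophages is not given here. In endothelium 1495 genes were lower and 46 higher, and after the trend with GC content was removed 1126 were lower and 225 higher. The members tested also did not pass in NK cells, neutrophils, capillary cells, resident-gated macrophages or CD8 T cells, where they numbered 5, 4, 8, 7 and 7. These comparisons of the groups were added after the data were seen, and 8.11%, 1.46%, 12.1%, 7.30% and 4.60% of genes passed. There the unadjusted p was under 0.05 for 1 member, Vcam1 in resident-gated macrophages, which DESeq2 also called. In those macrophages 1965 of 10203 genes had such a p with edgeR. In mural and Schwann cells, where 5.74% and 3.72% of genes passed, no member was abundant enough to be tested.

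Among the ligands, Vcam1 in monocytes and macrophages had the widest separation. VCAM-1 on macrophages is known from resident cells of the spleen and other tissues. The levels were 54.1, 28.0, 62.1, 238 and 189 CPM. Disease 4 and disease 5 stood well above the rest, whereas disease 3 lay just above control 1, so the groups did not overlap. The share of all genes without overlap was not computed. The difference was 2.11 (SE 0.65, edgeR adjusted p = 0.135). It passed under 3 of 14 alternatives: with DESeq2 (2.13, adjusted p = 0.00758), when every gene with a count was kept in edgeR (2.12, adjusted p = 0.000269) and without disease 3 in edgeR (2.48, adjusted p = 0.0144). Over all 14 the difference ran from 1.61 to 2.76 and the adjusted p from 0.000269 to 0.607. In resident-gated macrophages alone it was 1.95 (SE 0.61, edgeR adjusted p = 0.1296, DESeq2 adjusted p = 0.0117). There it ran from 1.435 to 2.69 with 1 library left out at a time. Summed markers of fibroblasts in these cells were 152, 147, 153, 86.1 and 138.5 CPM and of endothelium 36.7, 32.1, 48.5, 34.2 and 50.3 CPM. The part of carried-over RNA or doublets in the Vcam1 difference was not tested. Thinned to 1000 UMIs, 3.51%, 2.61%, 4.64%, 13.7% and 10.1% of these cells had a Vcam1 UMI (95% Wilson intervals 2.62% to 4.70%, 1.498% to 4.504%, 3.14% to 6.81%, 12.0% to 15.6% and 8.04% to 12.6%, counting error only). The comparison of the groups gave an exact two-sided permutation p of 0.2, adjusted p = 1 over 45 tests, where the smallest possible p is 0.1. The groups did not overlap at 1000 UMIs a cell, but overlapped at 2000 UMIs (7.56%, 3.86%, 6.72%, 21.2% and 15.02%) and without thinning (14.5%, 5.86%, 11.9%, 35.2% and 23.4%), with an exact p of 0.3 in both. At 1000 UMIs in T cells the shares were 0.178%, 0%, 0%, 0.844% and 0.520%, with median depths before thinning of 3734 to 4750 UMIs against 5154.5 to 7128 UMIs in monocytes and macrophages.

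Vcam1 in endothelium and fibroblasts pointed the same way without passing. With the levels given above, disease minus control was 0.75 in endothelium (SE 0.50, edgeR adjusted p = 0.400) and 0.57 in fibroblasts (SE 0.33, edgeR adjusted p = 0.309). In both classes disease 3 lay between the controls, so the groups overlapped. Leaving out 1 library at a time, the difference ran from 0.29 (without control 2) to 1.43 (without control 1) in endothelium, and was 0.30 without disease 4. In fibroblasts it ran from 0.21 (without disease 4) to 0.82 (without control 1). The group difference in monocytes and macrophages exceeded that in endothelium by 1.11 (SE 0.32, edgeR adjusted p = 0.730) and that in fibroblasts by 1.49 (SE 0.40, edgeR adjusted p = 0.574), and neither passed, where 0.0146% and 0.0568% of genes did. Without disease 3 the second was 1.91 (edgeR adjusted p = 0.00123), when 106 genes passed. Endothelium and fibroblasts differed from each other by 0.063 in the Vcam1 response (SE 0.18, edgeR adjusted p = 0.907), where 0.383% of genes passed.

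Icam1 was highest in disease 4 in endothelium, fibroblasts, monocytes and macrophages, and T cells, and disease 3 lay within or below the range of the controls in each. Disease minus control was 0.27 in endothelium (SE 0.27, edgeR adjusted p = 0.572), 0.44 in fibroblasts (SE 0.32, edgeR adjusted p = 0.422) and 0.37 in monocytes and macrophages (SE 0.26, edgeR adjusted p = 0.470). Leaving out 1 library at a time, the endothelial difference ran from 0.047 (without control 2) to 0.54 (without control 1), and was 0.050 without disease 4. The fibroblast difference ran from 0.073 (without disease 4) to 0.65 (without disease 3), and that in monocytes and macrophages from 0.13 to 0.50 (the same libraries). Among Vcam1, Icam1 and Icam2, only Icam2 had every disease library above both controls in endothelium. The share of all genes with that order was not computed, so the order is a description only. Its difference was 0.31 (SE 0.15, edgeR adjusted p = 0.263). In thinned endothelial cells, 41.6%, 39.1%, 47.2%, 55.5% and 46.2% had an Icam2 UMI (exact two-sided permutation p = 0.1, the smallest possible, adjusted p = 1), a difference of 9.27 percentage points. At 2000 UMIs a cell it was 8.28 points, with no overlap (exact p = 0.2). Without thinning it was 2.56 points, and the groups overlapped (exact p = 0.5). In B cells, with the levels given above from 15 to 51 UMIs a library, Icam2 differed by 0.87 (SE 0.29, edgeR adjusted p = 0.122). Thinned to 1000 UMIs, the mean share of B cells with an Icam2 UMI was 4.53% in control and 4.17% in disease (exact permutation p = 0.8). The difference was 3.09 points at 2000 UMIs (exact p = 0.1) and 3.82 without thinning (exact p = 0.2), both without overlap.

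Among the partners, T cells showed differences of 0.53 for Selplg, 0.45 for Itga4, 0.65 for Itgal and 0.49 for Itgb2. Their SEs were 0.31, 0.38, 0.38 and 0.42, and the edgeR adjusted p-values were 0.496, 0.632, 0.488 and 0.636. Control 2 was the lowest library for all 4 genes, and it held 92 T cells whose summed T cell markers were 3705 CPM, against 5592 to 8513 CPM in the other libraries. Without control 2 the differences were the lowest of any fit that left out 1 library, at 0.26 for Selplg, -0.0086 for Itga4, 0.24 for Itgal and 0.058 for Itgb2. Without control 1 they were the highest, at 0.87, 1.202, 1.41 and 1.17. Monocytes and macrophages showed 0.37 for Selplg, 0.36 for Itga4, 0.55 for Itgal and 0.61 for Itgb2, with edgeR adjusted p-values of 0.402, 0.379, 0.604 and 0.415. Without disease 4 these were lowest, at 0.19, 0.19, -0.091 and 0.26, and without control 1 Itgal was 1.43 and Itgb2 1.06. In B cells Selplg differed by 1.22 (SE 0.43, edgeR adjusted p = 0.138), with every disease library above both controls, an order not counted over all genes. The Selplg difference was 0.61 without control 2 and 1.92 without control 1. In these whole-class sums, fewer cells of a state and less RNA per cell cannot be told apart.

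**Figure D5:**
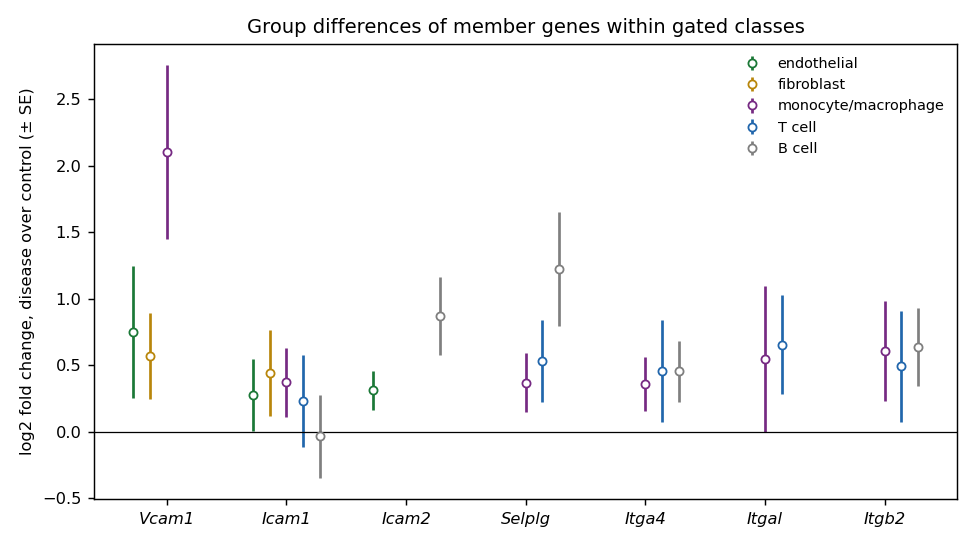
Log2 fold change, disease over control, with its SE (vertical axis) for members with a mean of at least 20 CPM in the class, from edgeR. All points are open because none passed an adjusted p of 0.05; the largest is Vcam1 in monocytes and macrophages at 2.11 ± 0.65.

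Partner UMIs in endothelial cells and fibroblasts were few, and in both classes disease 4, the library with most leukocytes (50.2%), was highest for all 4 genes. In endothelium Itgb2 was 5.12, 1.31, 1.95, 9.92 and 3.26 CPM and Selplg 4.94, 1.53, 2.18, 10.6 and 2.86 CPM. Endothelial Itga4 was 5.31, 3.62, 1.72, 10.4 and 2.47 CPM and Itgal 1.37, 0.438, 0.918, 2.39 and 0.395 CPM. Control 1, with the second-highest leukocyte share (24.0%), was second-highest for all 4 genes in both classes, and disease 5 (21.9%) came next for Selplg and Itgb2 in both. The rest of the order was not kept. Disease 3, with the lowest share (15.9%, against 17.9% in control 2), lay above control 2 for 3 of the 4 genes in endothelium and for all 4 in fibroblasts, and disease 5 was lowest for endothelial Itgal. No expression by endothelium is read from these levels.

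Other genes of the pathway were examined in 5 lists. Of 16 tested adhesion ligands of vessel and stroma, 8 were higher and 6 lower in endothelium than in fibroblasts, where 32.5% of all genes were higher and 33% lower. Their median was 0.77 against 0.022 for all genes. Podxl and Mcam, sialomucin and immunoglobulin-type surface proteins of endothelium, differed by 7.15 and 5.11, and the junction gene F11r by 7.27. Thbs1 and Alcam differed by -5.27 and -3.47, and Cd34, another sialomucin, by -1.17. Of 20 leukocyte integrins and adhesion receptors, 12 were higher and 5 lower in T cells than in monocytes and macrophages, where 27.7% of all genes were higher and 36.7% lower. Their median was 1.38 against -0.17 for all genes. Itgae and Itgb7, the chains of the integrin that binds E-cadherin, differed by 3.96 and 2.08. Itgam and Itgax, the myeloid partners of the Itgb2 chain, differed by -5.95 and -3.27. Without disease 4, the library with most T cells, Itgae was 4.84, Itgb7 2.67 and Itgax -2.29, and without disease 5 Itgax was -3.99. In endocardial against capillary cells, 2 of 11 adhesion ligands were higher, Vwf by 5.95 and Fn1 by 2.32, and 5 were lower, against 19.8% and 20.9% of all genes.

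Between the groups, list genes that passed were nearly all lower in disease, as were genes in general. In endothelium 11 of the 65 tested list genes were lower and 0 higher, against 11.8% and 0.363% of all genes. They included the selectin-ligand enzymes Tpst1 (-1.64), St3gal4 (-1.79) and B4galt1 (-0.68), the interferon gamma receptor chain Ifngr2 (-1.95), the NF-kappaB genes Nfkbia (-1.71) and Relb (-1.08), and Itgb1 (-1.09), which encodes the chain that pairs with Itga4. In fibroblasts the same genes were at -1.92, -1.79, -0.78, -1.93, -1.95, -1.10 and -1.16, all past the test. Tpst1, St3gal4, Ifngr2 and Itgb1 passed in both classes under every alternative run. Once the GC trend was removed, B4galt1 did not pass in either class (-0.33 and -0.38) and Relb did not pass in fibroblasts (-0.71, edgeR adjusted p = 0.0679), and B4galt1, Relb and Nfkbia each missed the threshold in at least 2 of the 5 fits that left out 1 library in each class. Fibroblasts had 12 lower and 0 higher of 65, against 12.5% and 0.398% of all genes. In monocytes and macrophages 6 of 60 list genes were lower (B4galt1, Cd47, Relb, Itgb1, Sharpin and Ifngr2), against 6.79% of all genes (0.0455% of all genes were higher). Of these, Ifngr2 passed under every alternative run. B4galt1 and Cd47 missed the threshold in 4 of the 5 fits that left out 1 library (they passed without disease 4). Relb, Itgb1 and Sharpin missed it in 3 (without control 1, control 2 or disease 5). With the GC trend removed B4galt1, Cd47, Relb and Itgb1 did not pass, and with up to 25% mitochondrial UMIs B4galt1, Cd47 and Relb did not. In T cells 3 were lower (B4galt1, Relb and Cd47) and in B cells 5 (Tpst1, Tpst2, Relb, Nfkbia and Cd47), with 0 higher in both. Each of these calls was lost in at least 1 fit that left out a library. In T cells B4galt1 missed the threshold in 5 of the 5 fits that left out 1 library, Relb in 4 (it passed without control 1) and Cd47 in 1 (without disease 5), and B4galt1 and Relb also with equal cells per library or the GC trend removed. In B cells Tpst2 missed it in 5 of 5, Relb in 4 (it passed without control 1), Nfkbia in 3 (without control 1, control 2 or disease 5), Cd47 in 2 (without control 1 or disease 5) and Tpst1 in 1 (without control 2). Tpst2 and Relb in B cells also missed it with DESeq2, equal cells per library or the GC trend removed. All genes had 4.9% lower and 0.0102% higher in T cells, and 8.98% and 0.232% in B cells. The median over the selectin-ligand enzymes was -0.68 in endothelium and -0.64 in fibroblasts, against 0.00038 and -0.013 for all genes tested. It was the lowest of the 5 list medians in both classes. In endothelium the others were 0.095 (ligands), 0.276 (receptors), -0.305 (integrin activation) and -0.165 (NF-kappaB and interferon inputs). In fibroblasts they were 0.026, 0.167, -0.164 and -0.244.

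The genes most like each member were found across 25 sums (5 classes in 5 libraries), among 9840 genes, as a description only, since the sums share libraries and depth. They were Magt1 (Pearson r 0.946) and Anxa5 (0.939) for Vcam1, Cln8 (0.946) and Jdp2 (0.939) for Icam1, and Pecam1 (0.954) and Ppp2r5a (0.948) for Icam2. For the partners they were Bcl2a1d (0.976) and Rgs2 (0.972) for Selplg, Sla (0.991) and Dock2 (0.990) for Itga4, Runx3 (0.975) and Trpv2 (0.974) for Itgal, and Arhgap9 (0.989) and Epsti1 (0.989) for Itgb2. Sele (Cyp2j9 at 0.829 and Mn1 at 0.828) and Selp (Sh3bgrl2 at 0.818 and Arhgap31 at 0.790) had lower values, from few UMIs.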

How the data were processed

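Single-cell RNA was measured in 5 libraries of mouse heart cells. Per the file headers, the authors deposited unnormalised counts of UMIs for each gene in each barcode. Cell Ranger 3 and Seurat 3 are named in the submitters' processing notes, beside the builds mm10 and GRCh38 with no role given. The genotype labels number Pdcd1 upward from library to library, as do the labels of the sort dye, so only the Ctla4 genotype was used to group the libraries. The 9 members, the 5 gene lists, the markers and the tests were chosen with earlier results of these data known. No list gives independent support for a direction. One result on a list gene is not reported here.

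Barcodes with at least 500 UMIs, 200 genes and at most 10% mitochondrial UMIs were kept, and 1137 doublets (2.97%) called by Scrublet in scanpy 1.11.5 were removed. In control 2 it called only 5 (0.0895%), so it did not work there and the gates were the only guard. A cell was placed in a class when it held at least 3 of 10 class markers and at least 2 times as many as for any other class, and in a subset by at least 2 subset markers. UMIs were summed per class and library and tested with edgeR 4.0.16 (R 4.3.3, TMM, low counts filtered, quasi-likelihood, Benjamini-Hochberg over all genes tested), with library as a block between classes, which assumes the classes of a library are otherwise independent. DESeq2 1.42.0 was an alternative. Classes were tested where every library held at least 30 cells, or 10 for subsets; the mural, neutrophil, NK, Schwann, endocardial, lymphatic and monocyte-gated contrasts missed these minimums and were added with minimums of 10 for classes and 9 for subsets. The capillary, resident-gated and CD8 subsets met the minimum, but comparing the groups within them was also added later. Library totals of 24991704 to 55053988 UMIs set the depth, and intervals cover counting error only. Named genes are the members and the genes of the 5 lists, and a member's fold change between the groups is given where its mean reaches 20 CPM, except for Sele and Selp, which are given below it. The edgeR steps were tested on simulated data.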

Additional observations from a re-analysis of the deposited data

How the results depend on the processing

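Fits of the alternatives were compared with the fits reported above. Of 161 counts of called genes recomputed with another setting and all libraries, 135 stayed within 1.5 times. For disease against control, keeping every gene with a count gave 1357 called genes in monocytes and macrophages, 822 in T cells, 1010 in B cells, 265 in mural, 97 in Schwann and 37 in neutrophil cells, 1518 in resident-gated macrophages and 901 in CD8 T cells. With the GC trend removed there were 493, 217, 303, 78, 18, 49 (NK) and 187 (CD8), in the order monocytes and macrophages, T, B, mural and Schwann cells first. Equal cells per library gave 235 in T, 237 in B and 38 in NK cells. DESeq2 gave 73 in mural and 58 in NK cells, and up to 25% mitochondrial UMIs gave 200 in mural cells. For NK minus T cell, plain totals gave 681, a gate of 2 markers 781 and a gate of 4 markers 719, against 1259. For the group effects, plain totals gave 27 (endothelial minus fibroblast) and 3 (monocyte/macrophage minus fibroblast).

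The split of calls into higher and lower also moved. Without TMM, or with DESeq2, NK minus T cell had 386 higher and 295 lower, and 748 higher and 314 lower, against 223 and 1036. DESeq2 gave 1984 higher and 1515 lower for mural minus endothelial, 2442 and 1605 for neutrophil minus monocyte/macrophage, and 1674 and 770 for Schwann minus fibroblast. Plain totals gave 1635 and 3363 for B cell minus T cell, and 1018 and 810 for Schwann minus fibroblast. In fibroblasts DESeq2 gave 321 higher and 1913 lower in disease.

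Leaving out 1 library at a time gave 801 to 1534 called genes in endothelium, 811 to 1822 in fibroblasts, 220 to 1039 in monocytes and macrophages, 1 to 392 in T cells (1 without disease 5), 58 to 488 in B cells, 12 to 120 in mural, 1 to 54 in Schwann, 5 to 34 in neutrophil and 31 to 119 in NK cells. It gave 812 to 1528 in capillary cells, 291 to 934 in resident-gated macrophages, 3 to 382 in CD8 T cells, 578 to 1156 for NK minus T cell and 130 to 341 for CD8 minus CD4. The group effects gave 3 to 243, 0 to 16 and 1 to 106 (endothelial minus fibroblast, monocyte/macrophage minus endothelial and minus fibroblast). The counts are therefore not stable to 1 library.

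Without thinning, the difference in the share of cells with a UMI was 13.3 percentage points for Vcam1 in monocytes and macrophages (6.42 thinned to 1000 UMIs) and 2.56 for Icam2 in endothelium (9.27 thinned), and both groups of values overlapped.

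The sign turned for members that had not passed the test. Leaving out 1 library at a time, disease minus control ran from -0.091 to 1.43 for Itgal in monocytes and macrophages, from -0.022 to 0.57 for Icam1 and -0.0086 to 1.202 for Itga4 in T cells, from -0.046 to 0.44 and -0.029 to 1.22 for them in CD8 T cells, and from -0.20 to 0.20 for Icam1 in B cells. NK minus T cell ran from -0.0081 to 0.42 for Icam1 and from -0.046 to 0.32 for Selplg, and CD8 minus CD4 from -0.0063 to 0.35 for Itga4. The group effects ran from -0.21 to 0.43 for Vcam1 and -0.43 to 0.11 for Icam1 (endothelial minus fibroblast), and for Icam1 from -0.44 to 0.28 and -0.043 to 0.14 (monocyte/macrophage minus endothelial and minus fibroblast). That last value was -0.17 with plain totals. In NK minus T cell, Selplg was -0.026 with up to 25% mitochondrial UMIs, and Itga4 was 0.16 with DESeq2 and 0.15 with plain totals. The cause was not tested.

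Disease and control libraries were not paired, because the labels give no pairing between the groups. Contrasts between classes used library as a block. The alternatives with 1 or 3 subset markers were not run for CD8 minus CD4, which rests on Cd8a or Cd8b1 against Cd4. Depth limits the selectins, with at most 42 UMIs a library in endothelium.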
